A study of Mus musculus with 72 samples.

Results

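The striatum was examined for mature miRNAs whose level differed between mice with a crushed sciatic nerve and uninjured mice, in both genotypes of the study. The libraries were chosen by their column names alone, as every striatum library labelled crush or naive, and made up 24 of the 71 libraries analysed. They comprised 6 libraries of crushed Thap1+/- mice, set against 6 of naive Thap1+/- mice, and 6 of crushed wild-type mice, set against 6 of naive wild-type mice. All mice were male. The right sciatic nerve was crushed for 1 min under isoflurane when mice were 12 weeks old, and the samples carry a time of 12 weeks after injury. The tissue was the left striatum, the side opposite to the nerve. Naive mice are described as uninjured, with no sham operation named. Thap1+/- mice are heterozygous for Thap1, a transcription factor gene mutated in DYT6 dystonia, and the study asked how brain regions relevant to dystonia respond to genotype and nerve injury. Thap1 mRNA is not among the features counted, so the genotype labels were not checked on it. The 1927 features are mature miRNAs, of which 575 had enough counts to be tested in striatum.

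A miRNA guides the Argonaute protein to messenger RNAs that pair with its seed, bases 2 to 8 from its 5′ end, and lowers their stability or translation. miRNAs with the same seed form a family with overlapping targets, although each can come from its own gene and be controlled separately. The striatum receives dopamine input and takes part in the control of movement. Sciatic crush injures axons of motor and sensory neurons whose cell bodies lie in spinal cord and ganglia, so a difference in striatum is remote from the lesion.

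After crush, 9 miRNAs fell in striatum and none rose, when the crush effect was averaged over both genotypes (edgeR's quasi-likelihood test, Benjamini-Hochberg adjusted p under 0.05, called here passing). These 9 are 1.57% of the 575 tested, and 59 had an unadjusted p under 0.05. DESeq2 called 22 of the 416 it kept (5.29%), 15 lower and 7 higher, and the 15 included all 9. Under RLE scaling 2 passed with edgeR, miR-221-3p and miR-384-5p, and leaving out 1 library at a time gave 1 to 18. The 9 were miR-221-3p, miR-384-5p, miR-30b-5p, miR-30c-5p, miR-186-5p, miR-195a-5p, miR-15b-5p, miR-434-3p and miR-411-3p. The sizes were modest, with log2 fold changes from -0.45 to -0.24. Together the 9 took 0.182% ± 0.0195 of the counts in crushed Thap1+/- libraries and 0.244% ± 0.0194 in naive Thap1+/- libraries. They took 0.220% ± 0.0211 in crushed wild-type libraries and 0.281% ± 0.0204 in naive wild-type libraries (SD, n = 6 each).

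RefSeq (GRCm38.p6) held a mature sequence for 8 of the 9. They are printed 5′ to 3′ with the seed in capitals, to show which of them share a seed, and relatives that did not pass (miR-222-3p, miR-30a-5p, miR-30e-5p, miR-15a-5p and miR-16-5p) stand after the members of their family.
miR-221-3p: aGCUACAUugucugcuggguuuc
miR-222-3p: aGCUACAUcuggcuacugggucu
miR-384-5p: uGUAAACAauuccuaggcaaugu
miR-30c-5p: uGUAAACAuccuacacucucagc
miR-30a-5p: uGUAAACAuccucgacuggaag
miR-30e-5p: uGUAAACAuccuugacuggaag
miR-195a-5p: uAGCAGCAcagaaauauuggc
miR-15b-5p: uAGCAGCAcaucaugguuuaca
miR-15a-5p: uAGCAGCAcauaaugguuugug
miR-16-5p: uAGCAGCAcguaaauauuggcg
miR-186-5p: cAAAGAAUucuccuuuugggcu
miR-434-3p: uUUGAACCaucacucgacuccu
miR-411-3p: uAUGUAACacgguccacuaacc

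Mature miR-221-3p lies at chrX:19146307-19146329 on the minus strand, and the hairpin has no host gene in GENCODE M21. Mature miR-384-5p lies at chrX:105344332-105344354 on the minus strand, also outside any host gene. miR-30c-5p has 2 gene copies with the same mature sequence, so its count cannot be divided between them. One copy lies at chr1:23291714-23291736 on the plus strand, in an exon of the lincRNA Gm27028, and the other at chr4:120769584-120769606 on the minus strand, in an intron of Nfyc. miR-186-5p lies in an intron of Zranb2 (chr3:157544285-157544306, plus strand) and miR-15b-5p in an intron of Smc4 (chr3:69009775-69009796, plus strand). miR-195a-5p lies outside any host gene (chr11:70235062-70235082, plus strand). miR-434-3p and miR-411-3p belong to the imprinted Dlk1-Dio3 domain, at chr12:109594565-109594586 and chr12:109710225-109710246 on the plus strand, and the miR-434 hairpin is antisense to an exon of Rtl1.

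Totals ran from 7479448 to 11799412 counts per striatum library. Mean totals were 9361517 ± 671656 counts in crushed Thap1+/- libraries, 9534067 ± 1289526 in naive Thap1+/- libraries, 9930698 ± 589624 in crushed wild-type libraries and 11204181 ± 458012 in naive wild-type libraries (SD, n = 6 each). The number of miRNAs detected moved the same way, with means of 660 ± 19.0, 676 ± 9.35, 681 ± 16.1 and 702 ± 8.80 in those groups. With the log2 library total as a covariate, chosen after seeing the data, 9 miRNAs passed again, 2 higher and 7 lower, and 7 of them were among the 9 above. One library stood apart, the crushed Thap1+/- library in the column STR_DYT6KO_crush_8 (DYT6KO stands for Thap1+/-). Its score on the first principal component was -21.8, against -1.75 to 4.35 in the other 23. Deviations on the log2 scale were also taken, for each library, from the mean of the other libraries of its group. In STR_DYT6KO_crush_8 the median deviation of miRNAs in the lowest quartile of GC content exceeded that in the highest quartile by 1.05. This difference was -0.54 to 0.25 in the others. The -0.54 was that of STR_DYT6KO_crush_86, whose group mean included STR_DYT6KO_crush_8. With STR_DYT6KO_crush_8 left out, 18 miRNAs passed, 17 lower and 1 higher, among them all 9. Levels below are normalised counts (CPM after TMM scaling), given as lowest, median and highest of 6 libraries.

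miR-221-3p, a repressor of the cell cycle inhibitor Cdkn1b that has been studied in Schwann cells after sciatic injury in rats, showed the smallest p. Its level was 429, 574 and 627 CPM in crushed Thap1+/- striatum, against 586, 745 and 919 CPM in naive Thap1+/- striatum. In wild type it was 632, 665 and 749 CPM after crush, against 812, 937 and 1200.5 CPM in naive striatum. All 6 crushed wild-type libraries lay below all 6 naive ones, whereas the Thap1+/- groups overlapped. The log2 fold change averaged over genotypes was -0.45 ± 0.08 (SE; edgeR adjusted p = 0.00401), a level 0.730 times that of naive mice. This was the one miRNA of the 9 that passed whichever library was left out, with adjusted p from 0.000794 to 0.0215.

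**Figure D1:**
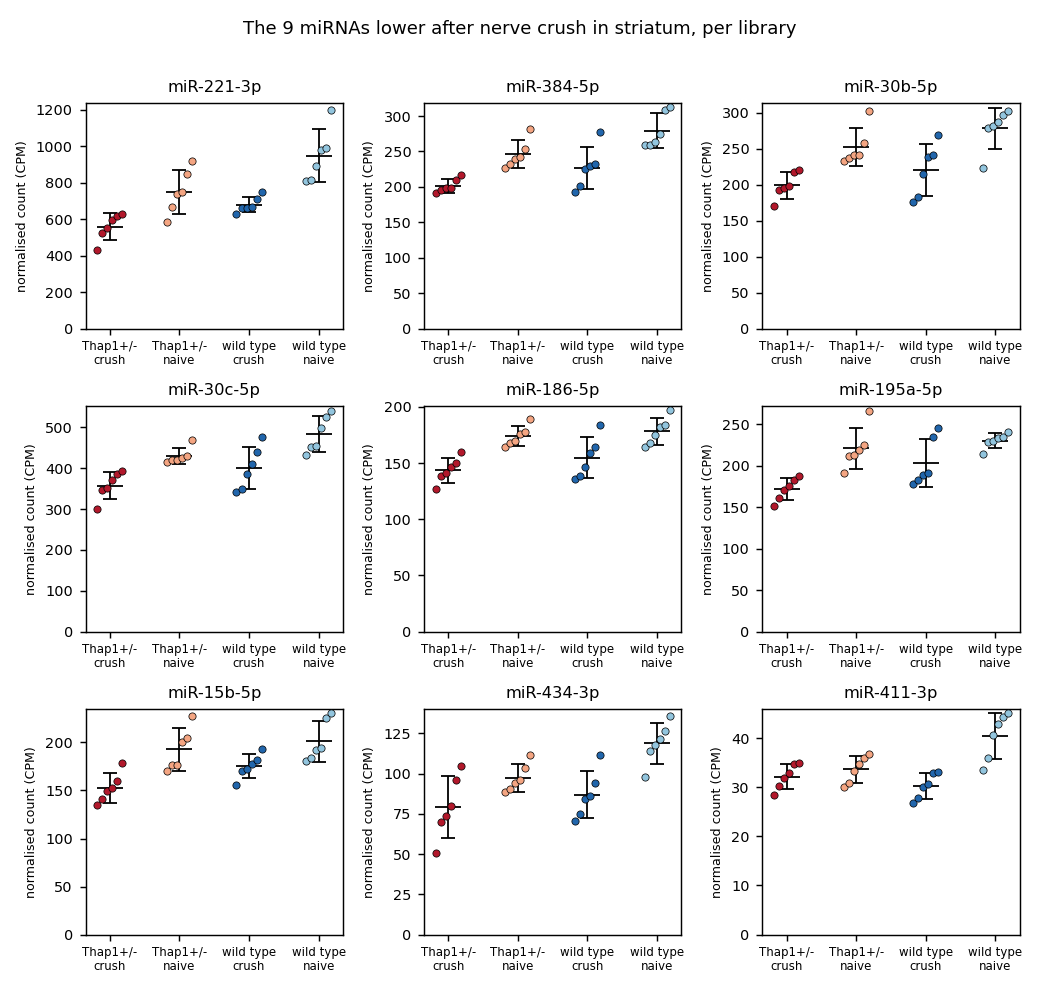
Normalised counts (CPM, y axis, from 0) of the 9 miRNAs that fell after crush in striatum, by group (x axis, crushed left of naive in each genotype). Points are single libraries, ordered by level within a group, and the bars are the mean ± SD of 6 libraries. For miR-221-3p and miR-411-3p the wild-type groups do not overlap, and for miR-384-5p, miR-30b-5p, miR-30c-5p, miR-186-5p and miR-195a-5p the Thap1+/- groups do not overlap.

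Among miRNAs matched to a RefSeq sequence, 2 that fell carried the seed GUAAACA of the miR-30 family, and miR-30b-5p, a further member of that family, fell as well. miR-384-5p, a brain-expressed miRNA studied in synaptic potentiation in rats, stood at 192, 198 and 217 CPM in crushed Thap1+/- libraries, against 227, 241 and 282 CPM in naive Thap1+/- libraries. Wild-type libraries stood at 192, 227 and 278 CPM after crush, against 259, 269 and 313 CPM in naive mice. The Thap1+/- groups did not overlap, and in wild type 5 of 6 crushed libraries lay below every naive one. The averaged log2 fold change was -0.30 ± 0.06 (SE; edgeR adjusted p = 0.0130). It did not pass without STR_wt_crush_11 (adjusted p = 0.0672), STR_wt_naive_124 (0.0530) or STR_wt_naive_96 (0.127).

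miR-30c-5p, a family member studied in neuropathic pain after nerve injury in rodents, had 300.4, 361 and 392 CPM in crushed Thap1+/- striatum, against 415, 423 and 469.7 CPM in naive Thap1+/- striatum. In wild type it had 343, 397 and 476 CPM after crush, against 432, 476 and 541 CPM in naive mice. The Thap1+/- groups were fully separated and the wild-type groups overlapped. Its averaged log2 fold change was -0.27 ± 0.06 (SE; edgeR adjusted p = 0.0244).

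miR-30b-5p, which represses the axon guidance ligand Sema3A in rat retinal ganglion cells, had 171, 197 and 221 CPM in crushed Thap1+/- striatum, against 232, 241 and 303 CPM in naive Thap1+/- striatum. Wild-type striatum had 176, 227 and 269.8 CPM after crush, against 223, 285 and 303 CPM in naive mice. Separation was again complete in Thap1+/- mice, and 3 of 6 crushed wild-type libraries lay below every naive one. Averaged over genotypes, the log2 fold change was -0.34 ± 0.07 (SE; edgeR adjusted p = 0.0225).

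The abundant members with the GUAAACA seed did not pass. miR-30a-5p, at a mean of 8177 CPM, had a log2 fold change of -0.03 ± 0.08, and miR-30e-5p, at 9684 CPM, one of 0.00 ± 0.09 (SE; edgeR adjusted p = 0.904 and 0.989). Of the 4 tested miRNAs whose matched sequence carries this seed, a count that leaves out miR-30b-5p and miR-30d-5p, 2 passed, and their means were 238 CPM for miR-384-5p and 418 CPM for miR-30c-5p. Of all tested miRNAs 1.57% passed, and the seed was read because passing miRNAs carried it, so this share is no separate evidence. The family member miR-30d-5p, at 5417 CPM, had a log2 fold change of -0.07 ± 0.04 and did not pass (edgeR adjusted p = 0.564). The opposite arms of the hairpins did not pass either: miR-384-3p had a log2 fold change of -0.14 ± 0.11, miR-30b-3p 0.07 ± 0.05, miR-30c-1-3p 0.11 ± 0.06 and miR-30c-2-3p 0.06 ± 0.09.

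The seed AGCAGCA of the miR-15/16 family, which represses cyclins and Bcl2, was carried by another 2 miRNAs that fell. miR-195a-5p stood at 152, 173 and 188 CPM in crushed Thap1+/- libraries, against 191, 216 and 266 CPM in naive Thap1+/- libraries. In wild type it stood at 178, 189.8 and 246 CPM after crush, against 215, 232 and 241 CPM in naive mice. No Thap1+/- library crossed between the groups, while in wild type the highest crushed library exceeded every naive one. The averaged log2 fold change was -0.27 ± 0.06 (SE; edgeR adjusted p = 0.0244).

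miR-15b-5p had 135, 151 and 179 CPM in crushed Thap1+/- striatum, against 171, 188 and 228 CPM in naive Thap1+/- striatum. Wild-type striatum had 156, 175 and 193 CPM after crush, against 181, 193 and 230.2 CPM in naive mice. The groups overlapped in both genotypes, with all 12 crushed libraries below the naive mean of their genotype. Averaged over genotypes, the log2 fold change was -0.27 ± 0.06 (SE; edgeR adjusted p = 0.0257). Of the 6 tested miRNAs whose matched sequence carries this seed, 2 passed, beside 1.57% of all tested miRNAs. The seed was read because passing miRNAs carried it, so this share is no separate evidence. miR-15a-5p had a log2 fold change of -0.22 ± 0.06 and missed the threshold (edgeR adjusted p = 0.0842). It passed as lower with DESeq2 (-0.19, adjusted p = 0.0443) and in edgeR without STR_DYT6KO_crush_8 (-0.24, adjusted p = 0.0320). miR-322-5p had -0.08 ± 0.09, miR-497a-5p -0.05 ± 0.09 and the most abundant member, miR-16-5p at 37115 CPM, 0.04 ± 0.04. The opposite arms were at about 1 CPM, with log2 fold changes of 0.27 ± 0.20 for miR-195a-3p and -0.28 ± 0.18 for miR-15b-3p.

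**Figure D2:**
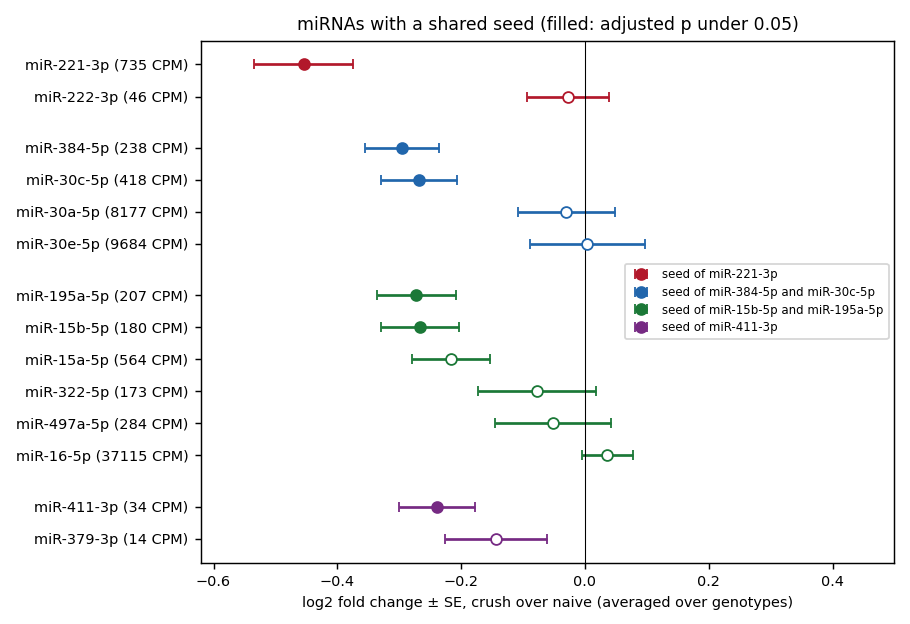
Log2 fold change ± SE of crush over naive striatum, averaged over genotypes (x axis), for tested miRNAs with a matched RefSeq sequence that share a seed with a miRNA that passed (y axis, with the mean CPM over 24 libraries). Filled points passed at an adjusted p under 0.05, and open points did not. miR-16-5p, the most abundant with its seed, lies at 0.04 and miR-30e-5p, the most abundant with its seed, at 0.00, while miR-221-3p, more abundant than miR-222-3p, lies at -0.45.

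miR-222-3p, which shares the seed and the hairpin cluster of miR-221-3p, had a log2 fold change of -0.03 ± 0.07 at a mean of 46.2 CPM (SE; edgeR adjusted p = 0.904). The opposite arm miR-221-5p, at 22.6 CPM, had one of 0.00 ± 0.10.

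miR-186-5p, which represses the beta-secretase gene Bace1 in mouse neuronal cells, had 127, 143 and 160.1 CPM in crushed Thap1+/- striatum, against 164, 172 and 189 CPM in naive Thap1+/- striatum. In wild type it had 135, 153 and 184 CPM after crush, against 164, 178 and 197 CPM in naive mice. The Thap1+/- groups did not overlap, and 4 of 6 crushed wild-type libraries lay below every naive one. The averaged log2 fold change was -0.24 ± 0.06 (SE; edgeR adjusted p = 0.0244). Its opposite arm miR-186-3p, at 0.908 CPM, had one of -0.51 ± 0.36 and did not pass.

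Of the Dlk1-Dio3 domain, whose miRNAs are expressed from the maternal chromosome and are abundant in brain, 2 of 81 tested members fell and none rose, a share near the 1.57% of all tested miRNAs that fell, and the median log2 fold change over the 81 was -0.03, against -0.02 over all tested miRNAs. miR-434-3p had 50.4, 76.9 and 105 CPM in crushed Thap1+/- striatum, against 88.7, 95.2 and 112 CPM in naive Thap1+/- striatum. Wild-type striatum had 70.7, 84.9 and 111 CPM after crush, against 97.9, 119.8 and 136 CPM in naive mice. The groups overlapped in both genotypes, and 1 crushed wild-type library, at 111 CPM, reached into the naive range. Averaged over genotypes, the log2 fold change was -0.38 ± 0.10 (SE; edgeR adjusted p = 0.0438). miR-434-3p did not pass in 16 of the 24 fits with 1 library left out.

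miR-411-3p, at lower abundance, had 28.4, 32.4 and 34.9 CPM in crushed Thap1+/- striatum, against 29.97, 34.0 and 36.8 CPM in naive Thap1+/- striatum. In wild type it had 26.8, 30.4 and 33.1 CPM after crush, against 33.6, 41.7 and 45.0 CPM in naive mice. The wild-type groups did not overlap, and the Thap1+/- groups overlapped nearly in full. The averaged log2 fold change was -0.24 ± 0.06 (SE; edgeR adjusted p = 0.0438). The opposite arm miR-411-5p, far more abundant at 5207 CPM, had a log2 fold change of 0.15 ± 0.08 and did not pass. miR-434-5p had -0.16 ± 0.07, and miR-379-3p, which shares the seed of miR-411-3p, -0.14 ± 0.08, and neither passed.

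**Figure D3:**
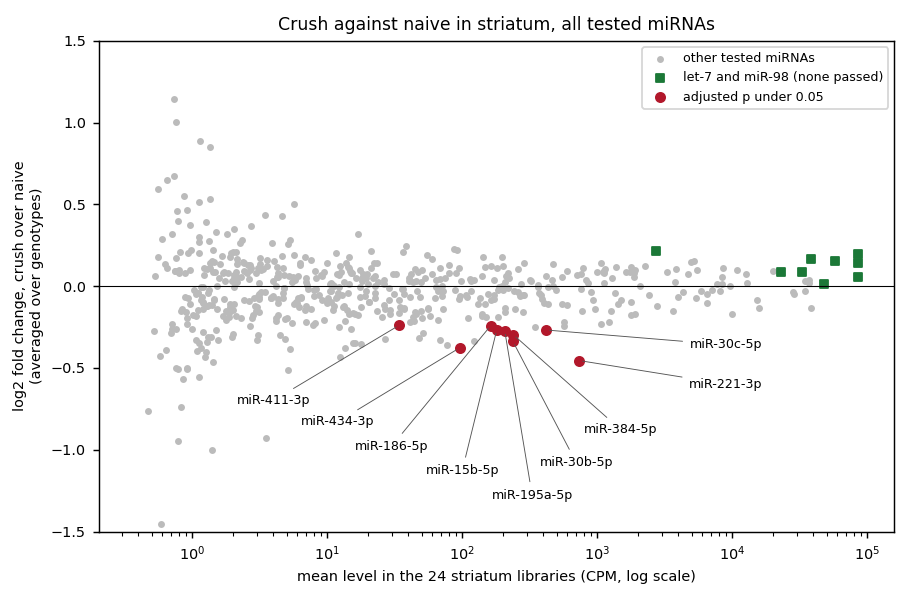
Log2 fold change of crush over naive striatum, averaged over genotypes (y axis), against the mean level over 24 libraries (x axis, CPM, log scale) for all tested miRNAs but 2 that lie beyond ±1.5. The 9 miRNAs that passed (red) lie between 34.1 and 735 CPM, and the 9 features of let-7 and miR-98 (green squares), among the most abundant, are all above 0 with none passing.

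Within single genotypes the separate tests passed few miRNAs. In Thap1+/- striatum 0 of 575 passed with edgeR (0%), 47 had an unadjusted p under 0.05, and DESeq2 called 13 of the 166 miRNAs it kept (7.83%), 5 higher and 8 lower. The smallest edgeR p belonged to miR-195a-5p, with a log2 fold change of -0.37 ± 0.09, miR-221-3p (-0.43 ± 0.11), miR-15b-5p (-0.33 ± 0.09), miR-186-5p (-0.28 ± 0.08) and miR-384-5p (-0.29 ± 0.08), with edgeR adjusted p from 0.202 to 0.257. Without STR_DYT6KO_crush_8, miR-192-5p (-0.58 ± 0.10, adjusted p = 0.00560) and miR-195a-5p (-0.40 ± 0.09, adjusted p = 0.0482) passed. Without STR_DYT6KO_naive_63, the library with the lowest total, miR-195a-5p and miR-221-3p passed (adjusted p = 0.0484 each). In the authors' deposited table for Thap1+/- striatum, 12 miRNAs had an adjusted p under 0.05, 5 higher and 7 lower, and the 7 lower ones were all among the 9 described above. The 5 higher ones in the authors' deposited table were let-7f-5p, let-7i-5p, miR-98-5p, miR-31-5p and miR-449a-5p.

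In wild-type striatum 1 of 575 passed (0.174%), and 33 had an unadjusted p under 0.05. It was miR-411-3p, at -0.42 ± 0.09 on the log2 scale (SE; edgeR adjusted p = 0.0399). DESeq2 called 3 of 993 (0.302%). The edgeR call of miR-411-3p held without STR_DYT6KO_crush_46, STR_DYT6KO_crush_8, STR_DYT6KO_naive_18, STR_DYT6KO_naive_63, STR_wt_crush_3, STR_wt_naive_136 or STR_wt_naive_31 and was lost without any one of the other 17 libraries. The next smallest p were those of miR-221-3p, at -0.48 ± 0.11 (adjusted p = 0.0767), and of miR-384-5p (-0.30 ± 0.08), miR-194-5p (-0.28 ± 0.08) and miR-434-3p (-0.45 ± 0.14), each with an adjusted p of 0.267. In the authors' deposited table for wild-type striatum, 2 miRNAs had an adjusted p under 0.05, miR-221-3p and miR-411-3p.

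Groups that did not overlap at all were counted as well. Every crushed library lay below every naive one for 7 of 575 miRNAs in Thap1+/- mice (1.22%) and above for 0. In wild type it lay below for 6 (1.04%) and above for 3 (0.522%). Beside the 5 miRNAs of the 9 that were separated in Thap1+/- mice stood miR-128-3p, a neuronal miRNA, and miR-130a-3p. miR-128-3p had 29969, 35134 and 37026 CPM in crushed Thap1+/- striatum, against 37752, 39811 and 42224 CPM in naive Thap1+/- striatum. Its log2 fold change there was -0.21 ± 0.07 (SE; edgeR adjusted p = 0.283), and in wild type it was -0.06 ± 0.07 (adjusted p = 0.926).

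No miRNA passed the test of the difference between the genotypes' crush effects (0 of 575, 0%; 21 at an unadjusted p under 0.05, and 0 with DESeq2). Among the 9, the difference of log2 fold changes, Thap1+/- minus wild type, was 0.05 for miR-221-3p, with a 95% interval of -0.26 to 0.36. It was 0.02 for miR-384-5p (-0.22 to 0.25), 0.00 for miR-30c-5p (-0.23 to 0.24) and -0.19 for miR-195a-5p (-0.43 to 0.06). The largest was that of miR-411-3p, 0.35 (0.11 to 0.59), with an unadjusted p of 0.00811 and an adjusted p of 0.974 (edgeR). Differences of these widths do not show that the genotypes respond alike. At a mean of 10 CPM or more, miR-344-3p had the smallest p, with a difference of 0.86 ± 0.27, followed by miR-411-3p, miR-375-3p (-1.03 ± 0.38), miR-300-5p (0.33 ± 0.14) and miR-449a-5p (0.40 ± 0.17). None passed (edgeR adjusted p = 0.974 each).

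Lists of miRNAs with known roles were read for the averaged effect. The lists were chosen with earlier results of these data known, so their shares are no separate evidence. Of 25 tested miRNAs studied in nerve injury, 3 fell and none rose, miR-221-3p, miR-30b-5p and miR-30c-5p, where 1.57% of all 575 tested miRNAs fell, and the list's median log2 fold change was -0.06. Of the miR-30 family's 5p arms, that list held only miR-30b-5p and miR-30c-5p. Of 23 tested miRNAs linked to mitochondria and energy metabolism, 2 fell and none rose, miR-195a-5p and miR-15b-5p, beside the same 1.57% of all tested miRNAs, with a median of -0.04. No member passed among 19 neuron-enriched miRNAs (median -0.07), 16 linked to dopamine and striatum (0.01), 10 activity-regulated miRNAs (-0.05), 9 of oligodendrocytes (-0.07), 7 of astrocytes (0.03) and 10 of microglia and inflammation (-0.13), beside a median of -0.02 over all 575. None passed among 15 of the miR-17-92 cluster and its paralogs (-0.04), 2 of the miR-183 cluster (0.32) and 22 of the Sfmbt2 cluster (0.11). Some members stood in several lists, so a list does not mark a single cell type. The astrocyte list shared miR-143-3p with the vessel list and miR-449a-5p with the choroid plexus and ependyma list. The oligodendrocyte list shared miR-144-3p with the red cell list.

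The members with the smallest p in those lists also missed the threshold in the edgeR fit of all 24 libraries (adjusted p in brackets). miR-135a-1-3p, from the neuronal list, had a log2 fold change of 0.44 ± 0.16 (0.265). miR-188-5p, regulated by neuronal activity, had -0.52 ± 0.15 at 5.12 CPM (0.0841). miR-23a-3p/23b-3p, from the oligodendrocyte list, had -0.25 ± 0.07 (0.0841). miR-449a-5p, from the astrocyte list, had 0.18 ± 0.08 (0.456), and miR-128-3p, from the dopamine and striatum list, had -0.13 ± 0.05 (0.270). In the clusters, miR-25-3p of miR-17-92 and paralogs had -0.21 ± 0.06 (0.117), miR-183-5p had 0.35 ± 0.28 (0.763) and miR-467e-5p of Sfmbt2 had 0.22 ± 0.07 (0.183). With DESeq2, miR-23a-3p/23b-3p (adjusted p = 0.0220) and miR-25-3p (0.0488) passed as lower and miR-467e-5p (0.0220) as higher. In edgeR without STR_DYT6KO_crush_8, miR-188-5p (adjusted p = 0.00589) and miR-23a-3p/23b-3p (0.0250) passed as lower and miR-135a-1-3p (0.0325) as higher. miR-449a-5p, miR-128-3p and miR-183-5p passed in neither setting. miR-146b-5p, a feedback repressor of inflammatory signalling, had -0.19 ± 0.07 (0.270). In wild type its crushed libraries, at 123, 146 and 152 CPM, all lay below the naive ones, at 160.5, 167 and 178 CPM.

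The let-7 family, which with miR-98 represses growth-promoting genes, took 47.2% ± 1.93 of the counts in crushed Thap1+/- libraries, against 44.8% ± 3.25 in naive Thap1+/- libraries. It took 46.8% ± 2.34 in crushed wild-type libraries, against 44.5% ± 1.85 in naive ones (SD, n = 6 each). All 9 features had a positive averaged log2 fold change, with a median of 0.14, and none passed. The smallest p was that of let-7f-5p, the most abundant miRNA in striatum, with 0.20 ± 0.07 (SE; edgeR adjusted p = 0.201), and let-7c-5p, let-7a-5p, let-7g-5p and let-7b-5p followed in abundance with 0.05 ± 0.07, 0.14 ± 0.05, 0.16 ± 0.05 and 0.01 ± 0.11. With only miRNAs of at least 10 CPM in the fit, let-7a-5p, let-7f-5p and let-7g-5p passed as higher (edgeR adjusted p = 0.0478 each), and DESeq2 called the same 3 as higher (adjusted p = 0.0488 each). The 9 signs were positive under RLE scaling too. Because counts are shares of a library, a larger let-7 share and lower shares of other miRNAs move together. With let-7 and miR-98 taken out of the fit, 7 of the 9 miRNAs that fell passed. The part of the let-7 share in these falls was not tested.

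Markers of cells that could accompany striatal tissue were read in every library. In bulk tissue, fewer cells of a type and less of a miRNA per cell cannot be told apart. The summed level of 10 microglial and inflammatory miRNAs ran from 3028 to 4101 CPM in crushed Thap1+/- libraries, against 3827 to 4324 CPM in naive Thap1+/- ones. It ran from 3738 to 4257 CPM in crushed wild-type libraries, against 4070 to 4837 CPM in naive ones, and its part in the results was not tested. Of 7 features of the Hox clusters, which mark hindbrain and spinal cord, 4 were at 0 in every library, and their sum was 5.02 to 11.6 CPM in crushed Thap1+/-, 4.08 to 10.3 CPM in naive Thap1+/-, 5.34 to 7.63 CPM in crushed wild-type and 4.91 to 13.9 CPM in naive wild-type libraries. The 4 red cell features, 1 of them at 0 in every library, summed to 30.9 to 183 CPM in crushed Thap1+/- libraries, 30.02 to 162 CPM in naive Thap1+/- ones, 33.7 to 118 CPM in crushed wild-type ones and 34.2 to 129 CPM in naive wild-type ones. None passed of the 7 vessel, 3 red cell, 5 muscle, 9 choroid plexus or ependyma and 1 Hox cluster miRNAs that could be tested. The smallest p there were those of miR-144-3p, with a log2 fold change of 0.21 ± 0.67, miR-126a-3p (0.09 ± 0.06), miR-204-5p (-0.33 ± 0.14), miR-208b-3p (-0.21 ± 0.19) and miR-10a-5p (-0.07 ± 0.18).

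The 9 miRNAs were then followed in left cortex and right cerebellum in one fit of all 71 libraries, with 655 miRNAs tested. They were chosen on the striatum libraries, so their striatum values in this fit are no separate evidence. Cortex and cerebellum libraries took no part in the choice, though they may come from the same mice. In striatum the joint fit passed only miR-221-3p among the 9 (adjusted p = 0.00376). In cerebellum all 9 had a negative log2 fold change averaged over genotypes, and 7 passed as lower after crush, where 3.51% of all tested miRNAs did, 3.66% passed as higher and 7.18% in either direction. The exceptions were miR-221-3p (-0.26 ± 0.09, adjusted p = 0.0730) and miR-15b-5p (-0.21 ± 0.13, adjusted p = 0.326). In Thap1+/- cerebellum 5 of the 9 passed as lower, where 23 of all 655 tested miRNAs did (6.87% in either direction). In wild-type cerebellum 0 of the 9 passed, where 4 of all 655 did, each as higher (0.611%). All 9 values were negative in both. In cortex none of the 9 was negative and 8 passed as higher after crush, where 7.79% of all tested miRNAs did, 2.9% passed as lower and 10.7% in either direction, miR-30c-5p being the exception (0.16 ± 0.09, adjusted p = 0.246).

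Cortex values are given for each genotype, and the difference between the genotypes there was not tested. In wild-type cortex 113 of all 655 tested miRNAs passed as higher and 52 as lower (25.2% in either direction). All 9 passed as higher after crush there, with log2 fold changes from 0.53 (miR-186-5p) to 1.39 (miR-434-3p). In Thap1+/- cortex, where 0 of 655 passed (0%; 58 at an unadjusted p under 0.05), the 9 ran from -0.30 (miR-30c-5p) to 0.30 (miR-221-3p). miR-434-3p, for example, averaged 148 ± 22.7 CPM in crushed wild-type cortex (SD, n = 6), against 56.2 ± 7.26 CPM in naive wild-type cortex (SD, n = 5), and 115 ± 16.8 CPM in crushed Thap1+/- cortex, against 129 ± 61.2 CPM in naive Thap1+/- cortex (SD, n = 6 each). The naive Thap1+/- cortex libraries were widely spread for miR-434-3p, with lowest, median and highest levels of 50.8, 157 and 183 CPM. In crushed Thap1+/- cortex they were 94.4, 112 and 137 CPM. These levels come from the joint scaling of the 3 regions.

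**Figure D4:**
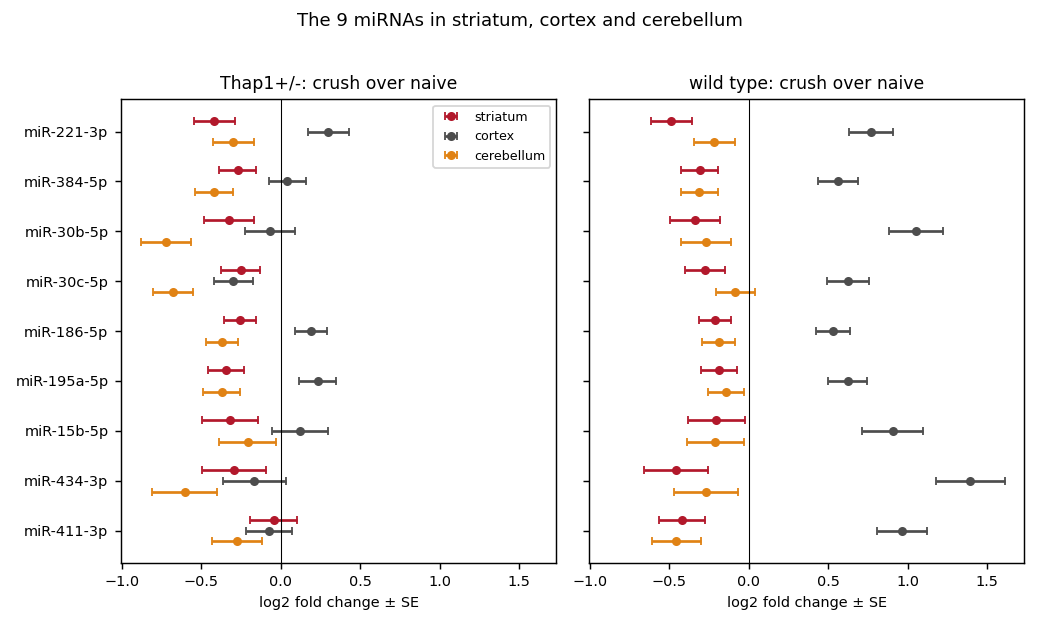
Log2 fold change ± SE of crush over naive (x axis) for the 9 miRNAs (y axis) in striatum, cortex and cerebellum, from one fit of all libraries, in Thap1+/- mice (left) and wild-type mice (right). Striatum and cerebellum points lie below 0 in both genotypes, and cortex points lie from 0.53 to 1.39 in wild type and from -0.30 to 0.30 in Thap1+/- mice.

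The crush effect in striatum minus that in cortex, averaged over genotypes, passed for 86 of 655 miRNAs (13.1%), 25 higher and 61 lower in striatum (9.31%). This split depended on scaling, with 47 higher and 49 lower under RLE scaling, 58 and 59 with DESeq2, and 49 and 31 without let-7 and miR-98. All 9 passed as lower in striatum, with differences from -0.99 ± 0.20 for miR-434-3p and -0.98 ± 0.13 for miR-221-3p to -0.43 ± 0.13 for miR-30c-5p (SE; edgeR adjusted p from 1.57e-07 to 0.0135). The striatum side of these differences comes from the libraries on which the 9 were chosen, and only the cortex side took no part in the choice. Within Thap1+/- mice 3 miRNAs passed (0.458%), all lower in striatum: miR-138-2-3p (-0.77 ± 0.17), miR-221-3p (-0.72 ± 0.18) and miR-128-3p (-0.40 ± 0.10), with adjusted p of 0.0123, 0.0478 and 0.0478. Against cerebellum no miRNA passed (0 of 655, 0%; 36 at an unadjusted p under 0.05, and 0 with DESeq2), and the 9 differences ran from -0.19 (miR-221-3p) to 0.16 (miR-30b-5p). The extraction kit was the same for striatum and cortex and another for cerebellum, so kit and region cannot be told apart there.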

How the data were processed

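Small RNA libraries were prepared with a QIAseq miRNA kit, and striatum RNA was extracted with a miRNeasy micro kit, per the labels' protocols. The deposited tables hold whole-number counts per mature miRNA, counted with featureCounts 1.6.4 per the submitters' processing notes. Not given in the sources used here: the aligner, the genome build and the use of molecular identifiers. The tables also hold the authors' log2 fold changes, p-values, mean signal and test score from DESeq2, per the file headers, of which only log2 fold changes and adjusted p-values were read. A further 284 columns of per-sample values were not used. Columns were assigned to groups by name. The labels call the samples biological replicates.

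After filterByExpr and TMM scaling, edgeR 4.0.16 (R 4.3.3, limma 3.58.1) fitted the counts with 1 mean per group, and comparisons used its quasi-likelihood test. Benjamini-Hochberg adjustment covered all miRNAs tested. Regions were compared in a joint fit of 71 libraries. Tests are two-sided, and SE was derived from the log2 fold change and its F statistic. Intervals are ± 1.96 SE. DESeq2 1.42.0 was an alternative, and an adjusted p it gave as missing stayed missing. The fit was run on simulated counts with known changes, drawn independently for each library. No simulated library was set apart as STR_DYT6KO_crush_8 was. The run therefore does not bear on how the calls depend on scaling or on single libraries. Even the most alike replicate pair had a chi-square over degrees of freedom of 31.8, so each library counted as 1 replicate. Figures used matplotlib 3.10.9.

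Named miRNAs are all those passing in a striatum comparison, the 5 smallest p at a mean of at least 10 CPM where fewer than 3 passed, each list's member with the smallest p, the 5 most abundant, opposite arms and seed relatives. miR-192-5p, miR-130a-3p, miR-138-2-3p, the levels of miR-128-3p and miR-146b-5p, and the miRNAs of the authors' deposited table were named after their values were seen. The comparison, the lists and the tests were chosen with earlier results of these data known. Copies of a multicopy miRNA, and near-identical let-7 and miR-30 members, may share reads.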

Additional observations from a re-analysis of the deposited data

Results flagged for a closer look

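For 15 items, each group of 6 libraries was checked, and in 5 of the 60 sets 1 library lay far from the other 5. Chance gives about 1 in 20 for independent sets, but these sets share the same 24 libraries. miR-30b-5p stood at 303.0 CPM in the naive Thap1+/- library STR_DYT6KO_naive_63, above the others, and miR-30c-5p at 469.7 CPM in the same library. miR-30b-5p stood at 223 CPM in the naive wild-type library STR_wt_naive_31, below the others. miR-344-3p stood at 38.1 CPM in the crushed Thap1+/- library STR_DYT6KO_crush_86, where the group median was 17.7 CPM. miR-449a-5p stood at 129.9 CPM in the crushed wild-type library STR_wt_crush_3, where the median was 203 CPM. STR_DYT6KO_naive_63 also had the lowest total and a let-7 and miR-98 share of 39.0%, the lowest of the 24 libraries.

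Averaged over genotypes, the crush effect differed between striatum and cortex, by the test of the difference in the joint fit, for each of the 9 miRNAs that fell in striatum. The differences, striatum minus cortex, were -0.98 for miR-221-3p, -0.59 for miR-384-5p, -0.82 for miR-30b-5p, -0.43 for miR-30c-5p, -0.60 for miR-186-5p, -0.69 for miR-195a-5p, -0.78 for miR-15b-5p, -0.99 for miR-434-3p and -0.68 for miR-411-3p on the log2 scale. Within Thap1+/- mice alone the difference passed for miR-221-3p (-0.72) and for no other of the 9, and it was 0.05 for miR-30c-5p and 0.03 for miR-411-3p. The 9 were chosen on the same striatum libraries. Only the cortex libraries took no part in the choice, and they may come from the same mice.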

How the results depend on the processing

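The averaged count of 9 became 2 under RLE scaling, 3 with no low-count filter and 14 among miRNAs of at least 10 CPM. It became 22 with DESeq2 (5.29% of 416) and 20 without STR_DYT6KO_crush_8 and STR_DYT6KO_naive_63, the last chosen after seeing the data. The 14 held 8 of the 9 as lower, without miR-411-3p. As higher they held let-7a-5p, let-7f-5p, let-7g-5p, miR-30a-3p, miR-31-5p and miR-467e-5p. DESeq2 called 7 of its 22 higher, and these same miRNAs were among them. Leaving out 1 library gave 1 to 18 calls: 1 without STR_wt_crush_11, STR_wt_naive_124 or STR_wt_naive_96, 2 without STR_DYT6KO_crush_117, STR_DYT6KO_crush_133, STR_wt_crush_113 or STR_wt_crush_139, 4 without STR_wt_naive_118 and 18 without STR_DYT6KO_crush_8. miR-221-3p passed under all of these settings. Of the 24 fits with 1 library left out, the averaged call was lost in 17 for miR-411-3p, 16 for miR-434-3p and 11 for miR-15b-5p. It was lost in 9 for miR-186-5p, in 8 each for miR-195a-5p, miR-30b-5p and miR-30c-5p, and in 3 for miR-384-5p. The 9 stayed negative under every alternative run. In Thap1+/- striatum the count of 0 became 13 with DESeq2 and 2 without both libraries, and 0 to 2 with 1 library left out. In wild type the count of 1 became 0 under RLE scaling, no filter, at least 10 CPM, without let-7 and miR-98, with the 2 groups alone or with the library total as covariate, 3 with DESeq2 and 2 without both libraries, and 0 to 3 with 1 library left out. The difference between genotypes stayed at 0. Striatum against cortex gave 77 to 108 with 1 library left out and 80 to 117 otherwise. miR-30c-5p lost that call without let-7 and miR-98 (-0.29, adjusted p = 0.0573). Striatum against cerebellum gave 0 to 1, the 1 without STR_DYT6KO_crush_86. The causes were not tested.

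No paired analysis was possible within striatum because the columns do not carry the replicate number of the titles and the groups compared share no column number, so that planned replicate block was not run. Column numbers recur between regions, and whether equal numbers mark the same mouse is not stated. The joint fit of all regions treated the libraries as independent. Same-numbered deviations correlated from -0.28 to 0.54 with cortex (18 of 23 over 0.1) and from -0.30 to 0.50 with cerebellum (17 of 24). With the column number as a replicate block, chosen after seeing the data, striatum against cortex gave 99 calls and striatum against cerebellum 0.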
